A study of Mus musculus with 6 samples.

Results

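The genes described here are 40 skeletal muscle genes, listed by name as parts of the sarcomere, of calcium handling in muscle fibres and of muscle energy metabolism. All 40 were found among the 23381 gene symbols of the table the authors deposited, which gives RPKM, the reads of a gene divided by its length and by the reads of the library. The table covers 3 tumours of mice given Vismodegib and 3 tumours of mice given DMSO, the vehicle. Vismodegib is a small molecule that inhibits Smoothened, the membrane protein that passes on Hedgehog signals. All tumours grew from 500000 cells of the 4T1 line, a mammary carcinoma line of Balb/c mice, injected at the inguinal mammary fat pad of syngeneic hosts. The labels give an age of 10 weeks for the mice. Once tumours were established, mice of both groups were dosed 3 times a week for 3 weeks, with 2 mg of Vismodegib per mouse in the treated group. Tumours were frozen and their RNA was sequenced. The labels do not say that each library came from its own mouse, so a p-value here weighs a difference against the spread of these samples, which may be technical. All libraries come from transplants of 1 cell line, and a dissected tumour holds host tissue as well as 4T1 cells.

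Skeletal muscle fibres contract when myosin motors of the thick filament pull on actin of the thin filament. Troponin and tropomyosin on the thin filament gate this step, and they open it when calcium leaves the sarcoplasmic reticulum. Titin, nebulin and the proteins of the Z disc hold the filaments in register. Fast fibres and slow fibres use different genes for most of these parts, so the mixture of transcripts reports the fibre type. Contractile genes of this kind are markers of mature muscle fibres and are not hallmarks of mammary carcinoma cells.

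The steps between the lowest RPKM values implied 41600000, 42700000 and 58000000 reads in Vismodegib replicates 1, 2 and 3, and 37500000, 34800000 and 40500000 reads in DMSO replicates 1, 2 and 3. The libraries expressed the epithelial genes of a carcinoma, with Epcam at 251 to 470 RPKM in Vismodegib and 146 to 288 RPKM in DMSO. Krt8, the other defining epithelial marker, was at 486 to 710 RPKM in Vismodegib and 419 to 936 RPKM in DMSO. The defining skeletal muscle transcripts Acta1, Ckm, Myh4 and Ttn were above 0 in each of the 6 libraries. All were lowest in DMSO replicate 3, at 0.676, 0.255, 0.0123 and 0.003 RPKM. The Myh4 value there rested on about 3 reads, so its presence in that library is uncertain. The defining cardiac markers Myh6, Myl7 and Nppa were between 0 and 0.159 RPKM in all libraries. The cardiac list as a whole summed to 28.9 to 79.7 RPKM in Vismodegib and 30.9 to 112 RPKM in DMSO, through Tnnt2 at 21.8 to 56.8 RPKM in Vismodegib and 23.6 to 34.5 RPKM in DMSO and Nppb at 4.08 to 20.9 RPKM in Vismodegib and 1.85 to 85.7 RPKM in DMSO. Of the 40 genes, 21 averaged 0.5 RPKM or more across all libraries and entered limma's test on log2(RPKM + 0.5), while 19 were too low to be tested. No gene of the 11818 tested passed at an adjusted p under 0.05 (0% called), and accordingly 0 of the 21 muscle genes did. At an unadjusted p under 0.05, limma gave 3 of the 21 muscle genes, all higher in Vismodegib, where 1.94% of all genes tested were past that value in this direction and 2.25% in either direction.

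Muscle transcripts varied most among the 3 DMSO libraries, which held both the highest and the lowest levels of most genes. DMSO replicate 2 held the highest value for 12 of the 21 tested muscle genes, and DMSO replicate 3 held the lowest value for 15 of them. Over all genes tested, DMSO replicate 2 was highest in 29.8% and DMSO replicate 3 was lowest in 12.4%. For 19 of the 21 genes, DMSO replicates 1 and 3 both lay below the other 4 libraries, an arrangement found in 7.86% of all genes tested. Of each library's summed RPKM, the 40 genes together held 0.0986%, 0.0769% and 0.0567% in Vismodegib replicates 1, 2 and 3. They held 0.0382%, 0.0848% and 0.0226% in DMSO replicates 1, 2 and 3. Eno3, which did not share this order, supplied 66.8 and 42.8 RPKM of these sums in DMSO replicates 1 and 3. Without Eno3 the genes summed to 285, 208 and 176 RPKM in Vismodegib and to 57.5, 304 and 35.4 RPKM in DMSO. The 3 treated tumours and DMSO replicate 2 thus held more of these transcripts than DMSO replicates 1 and 3, which still held some. Which cells of the tumours held these transcripts was not tested. In bulk tumours, a smaller number of such cells and less RNA per cell cannot be told apart.

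**Figure D1:**
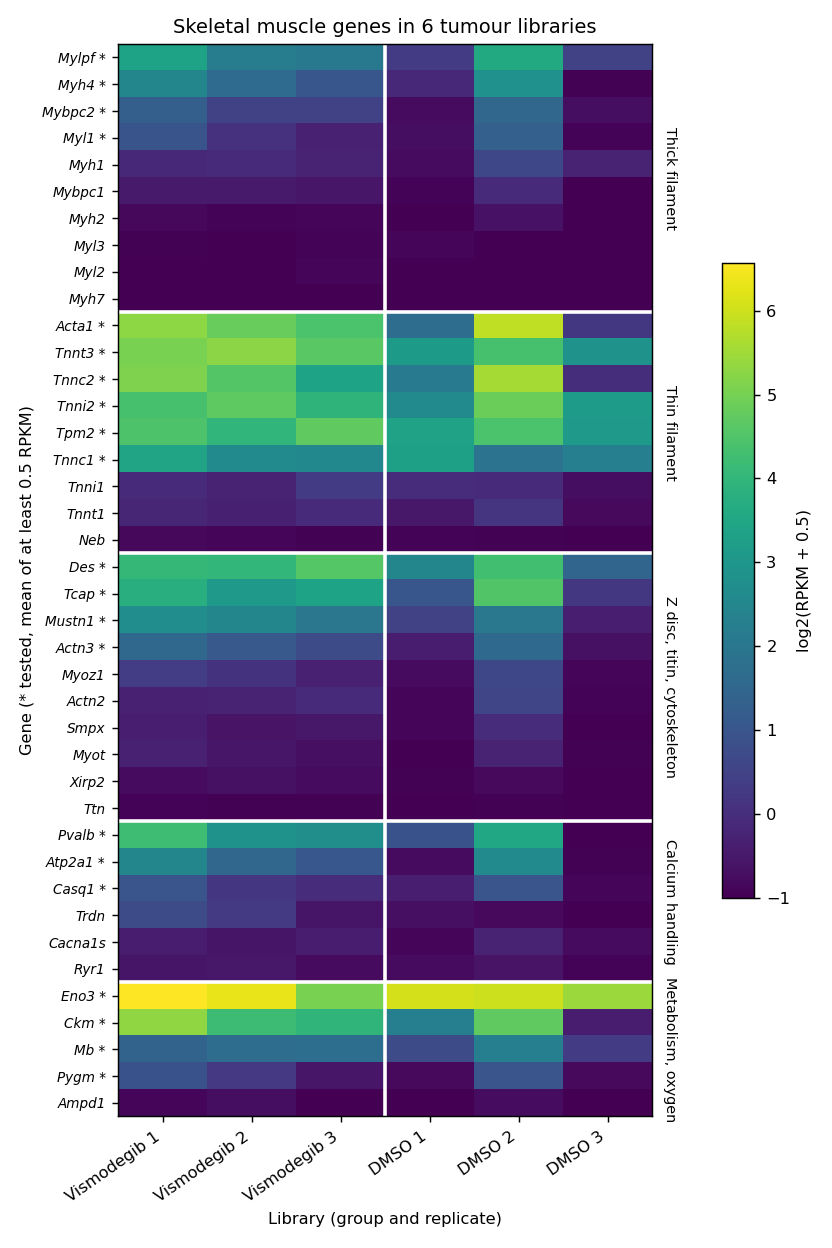
Heat map of the 40 skeletal muscle genes (rows, by role, an asterisk marks the 21 tested genes) in the 6 libraries (columns, Vismodegib left of DMSO), coloured by log2(RPKM + 0.5). DMSO replicates 1 and 3 are dark in most rows, while DMSO replicate 2 resembles the Vismodegib libraries, and Eno3 is bright in all 6.

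The promoters of 3 genes that followed the common library order, and of Tnnc1 and Eno3, which did not, are shown to let their elements be compared. They run from 250 bases before to 50 after the RefSeq transcription start on build GRCm38.p6 (mm10), at chr8:123894726-123895025 (minus strand) for Acta1, chr7:19410844-19411143 (plus) for Ckm, chr11:67237562-67237861 (plus) for Myh4, chr14:31208062-31208361 (plus) for Tnnc1 and chr11:70656926-70657225 (plus) for Eno3. Capitals mark the E-box CAGCTG, which MyoD-type factors bind, the MCAT element CATTCC, the TATA box TATAAA, the MEF2 site and the CArG box that serum response factor binds, on either strand.
Acta1: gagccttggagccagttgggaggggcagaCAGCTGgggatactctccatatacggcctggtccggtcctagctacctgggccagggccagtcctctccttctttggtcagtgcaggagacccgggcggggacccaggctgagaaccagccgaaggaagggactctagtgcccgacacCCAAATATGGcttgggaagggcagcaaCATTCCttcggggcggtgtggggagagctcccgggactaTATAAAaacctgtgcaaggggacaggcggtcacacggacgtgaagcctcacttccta
Ckm: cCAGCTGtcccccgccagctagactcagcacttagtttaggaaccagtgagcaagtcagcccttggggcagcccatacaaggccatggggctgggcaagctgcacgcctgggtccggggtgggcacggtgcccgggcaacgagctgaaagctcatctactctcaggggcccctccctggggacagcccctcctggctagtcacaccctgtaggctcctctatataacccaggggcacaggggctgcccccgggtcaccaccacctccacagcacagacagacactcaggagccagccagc
Myh4: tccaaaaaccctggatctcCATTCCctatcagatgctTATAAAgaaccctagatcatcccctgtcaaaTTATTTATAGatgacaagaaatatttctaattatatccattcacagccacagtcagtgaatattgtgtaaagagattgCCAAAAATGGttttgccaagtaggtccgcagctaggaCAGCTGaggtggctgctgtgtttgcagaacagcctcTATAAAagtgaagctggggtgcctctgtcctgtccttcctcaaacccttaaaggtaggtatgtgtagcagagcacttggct
Tnnc1: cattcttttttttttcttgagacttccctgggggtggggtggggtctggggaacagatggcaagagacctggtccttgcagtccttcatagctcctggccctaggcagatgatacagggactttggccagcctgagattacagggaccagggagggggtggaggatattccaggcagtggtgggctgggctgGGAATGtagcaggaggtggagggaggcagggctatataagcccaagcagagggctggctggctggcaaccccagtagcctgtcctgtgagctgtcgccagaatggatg
Eno3: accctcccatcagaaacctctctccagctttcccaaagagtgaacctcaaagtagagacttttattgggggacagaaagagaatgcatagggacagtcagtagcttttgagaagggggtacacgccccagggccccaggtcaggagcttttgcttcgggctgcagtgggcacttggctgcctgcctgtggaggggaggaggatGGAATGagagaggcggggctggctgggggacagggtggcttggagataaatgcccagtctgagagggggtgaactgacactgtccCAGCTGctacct

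In these windows, CAGCTG occurred in Acta1, Ckm and Myh4, and Myh4 held all 5 kinds of element. Tnnc1 held 1 MCAT element and none of the other 4 in this window. Eno3 held both CAGCTG and the MCAT element, so the presence of CAGCTG did not separate the genes with the common order from those without it. RefSeq gave 37 windows for 31 of the 40 genes. CAGCTG was found in 51.4% of these windows, where 16.3% of all 32851 promoter windows held it. The general E-box CANNTG, which includes CAGCTG, was found in 83.8% of the muscle windows and 72.3% of all windows. In the same order, muscle windows and then all windows, the shares were 32.4% and 14.7% for the MCAT element, 18.9% and 13.6% for the TATA box, 13.5% and 3.19% for the MEF2 site, and 8.11% and 1.63% for the CArG box. A match is a run of letters and does not show that a factor binds there.

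In the thin filament, Acta1 encodes the actin of adult skeletal muscle (ENSMUSG00000031972.5, mm10, chromosome 8, 123891769 to 123894751, minus strand). Its level in Vismodegib replicates 1, 2 and 3 was 38.5, 27.7 and 21.1 RPKM, against 2.76, 57.6 and 0.676 RPKM in DMSO replicates 1, 2 and 3, and the values of other genes below follow this order. DMSO replicate 2 was thus above every treated tumour, and the other controls were far below them. The means were 29.1 ± 8.79 RPKM in Vismodegib and 20.4 ± 32.3 RPKM in DMSO (SD, n = 3 each), so that the control spread exceeded the difference. The log2 difference of Acta1 was 2.25 (SE 1.18, 95% interval -0.43 to 4.92, limma adjusted p = 1.0). It was 3.88 without DMSO replicate 2 and 1.06 without DMSO replicate 3.

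The troponin genes of fast fibres differed in how far DMSO replicates 1 and 3 lay below the other libraries. Tnnc2, the calcium-binding troponin C of fast fibres, was at 33.9, 23.0 and 10.04 RPKM in Vismodegib against 3.87, 46.1 and 0.494 RPKM in DMSO. Its order over the DMSO libraries was that of Acta1. Tnnc2 shares its locus with the mitotic ubiquitin-conjugating enzyme gene Ube2c on the opposite strand, so that reads of the overlap are uncertain. Ube2c was at 56.5, 49.5 and 57.9 RPKM in Vismodegib and at 41.3, 74.6 and 77.1 RPKM in DMSO. The part of Ube2c reads in the Tnnc2 values was not tested. Tnni2, the inhibitory troponin I of fast fibres, was at 20.1, 25.5 and 14.9 RPKM in Vismodegib against 5.73, 28.8 and 8.65 RPKM in DMSO. Tnnt3, the tropomyosin-binding troponin T of fast fibres (ENSMUSG00000061723.18, chromosome 7, 142498836 to 142516009, plus strand), was at 32.5, 37.4 and 24.2 RPKM in Vismodegib against 8.30, 20.4 and 6.96 RPKM in DMSO. Tnnt3 was the only one of the 21 tested muscle genes whose groups did not overlap, where 4.29% of all genes tested did not overlap in this direction and 5.03% in either. It also had the smallest p of the 21 (log2 difference 1.5, SE 0.403, unadjusted p = 0.0051, adjusted p = 1.0 by limma).

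The remaining thin filament genes were 2 tested genes and 3 low ones. Tpm2, the beta chain of tropomyosin, was at 15.3 to 25.8 RPKM in Vismodegib and 8.04 to 21.2 RPKM in DMSO. Tnnc1, the troponin C of slow and cardiac muscle, did not share the common order. It was at 10.3, 5.49 and 5.35 RPKM in Vismodegib against 9.31, 3.17 and 4.37 RPKM in DMSO. Its lowest library was DMSO replicate 2, the library in which 12 of the 21 tested genes were highest. Tnnc1 lies within Nisch, a widely expressed gene on the opposite strand that was at 9.56 to 12.0 RPKM in Vismodegib and 8.10 to 10.3 RPKM in DMSO, so that its reads are uncertain. In all, 14 of the 40 genes overlap an opposite-strand gene that the table also lists. The slow troponin genes Tnni1 and Tnnt1 stayed between 0.067 and 0.742 RPKM in all 6 libraries. Neb, which encodes the thin filament ruler nebulin, was at 0.002 to 0.058 RPKM.

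In the thick filament, Myh4 encodes the myosin heavy chain of the fastest mouse fibres, type IIb (ENSMUSG00000057003.12, chromosome 11, 67238029 to 67260446, plus strand). Myh4 was at 5.09, 2.66 and 1.52 RPKM in Vismodegib against 0.408, 6.6 and 0.0123 RPKM in DMSO. With the totals above and a transcript of 6016 bases, the value in DMSO replicate 3 rested on about 3 reads and that in DMSO replicate 2 on 1382 reads. Mylpf, the regulatory light chain of fast myosin, was at 10.1, 4.01 and 3.69 RPKM in Vismodegib against 0.754, 11.6 and 0.885 RPKM in DMSO. Myl1, an essential light chain of fast myosin, was at 1.47, 0.564 and 0.308 RPKM in Vismodegib against 0.103, 1.98 and 0.0238 RPKM in DMSO. Mybpc2, the fast form of myosin-binding protein C, was at 1.96, 0.914 and 0.893 RPKM in Vismodegib against 0.0814, 2.31 and 0.103 RPKM in DMSO. In all 4 of these genes DMSO replicate 2 was above the 3 treated tumours and DMSO replicates 1 and 3 were below them. Their log2 differences ran from 0.37 to 1.15, with limma adjusted p = 1.0 for each.

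The low thick filament genes were mostly those of slow or other fast fibres. Myh7, the slow myosin heavy chain, was above 0 in Vismodegib replicate 2 alone, at 0.00543 RPKM, or 1.45 reads. The slow light chain genes Myl2 and Myl3 were at no more than 0.052 RPKM in any library. Myh1 and Myh2, the heavy chains of type IIx and IIa fibres, reached 1.06 and 0.149 RPKM in DMSO replicate 2. Myh4 made up 91.4%, 84.7% and 79.5% of the summed RPKM of Myh1, Myh2, Myh4 and Myh7 in Vismodegib replicates 1, 2 and 3. In DMSO the shares were 83.6%, 84.6% and 3.68%, the last in a library where the 4 genes summed to 0.335 RPKM and Myh1 alone gave 0.323 RPKM. Myh2, Myh1 and Myh4 lie side by side on chromosome 11 and have closely similar sequences, and Myh1 overlaps the antisense gene Myhas, so that the division of reads among them is uncertain. Mybpc1, the slow form of myosin-binding protein C, was at 0.190 to 0.233 RPKM in Vismodegib and 0 to 0.45 RPKM in DMSO.

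**Figure D2:**
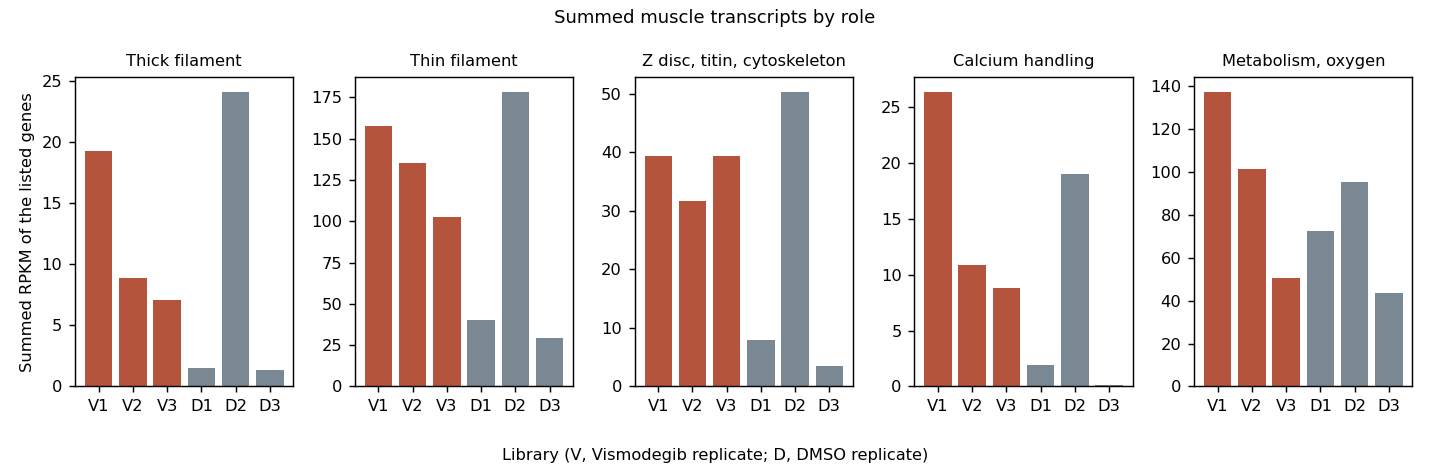
Summed RPKM of the listed genes of each role in each library (bars, Vismodegib replicates V1 to V3 left of DMSO replicates D1 to D3, each panel with its own scale from 0). In the first 4 panels D1 and D3 are the 2 lowest bars, and in the metabolism panel D3 and V3 are the lowest, with Eno3 the largest contributor.

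Among the genes of the Z disc, titin and the cytoskeleton, Des encodes desmin, the intermediate filament of skeletal, cardiac and smooth muscle. Des was at 16.1, 15.6 and 23.5 RPKM in Vismodegib against 5.10, 19.1 and 2.29 RPKM in DMSO (log2 difference 1.46, SE 0.615, unadjusted p = 0.042, adjusted p = 1.0 by limma). The smooth muscle genes Acta2 and Tagln were also highest in Vismodegib replicate 3, the library highest in Des, at 79.5 and 267 RPKM, and lowest in DMSO replicate 3, at 28.3 and 73.1 RPKM. Their part in the Des values was not tested. Mustn1, a small nuclear protein of muscle and skeletal tissue, was at 6.10, 5.09 and 3.49 RPKM in Vismodegib against 0.886, 3.55 and 0.280 RPKM in DMSO (log2 difference 1.69, SE 0.543, unadjusted p = 0.013, adjusted p = 1.0 by limma). In both Des and Mustn1 the groups overlapped through DMSO replicate 2.

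Tcap, the titin cap protein of the Z disc, was at 13.0, 7.88 and 9.95 RPKM in Vismodegib against 1.52, 22.2 and 0.678 RPKM in DMSO. Actn3, the alpha-actinin of fast fibres, was at 2.43, 1.65 and 1.16 RPKM in Vismodegib against 0.258, 2.5 and 0.136 RPKM in DMSO. The form found in all fibres, Actn2, had its own highest value in the same library, 0.991 RPKM in DMSO replicate 2. Myoz1, which binds calcineurin and alpha-actinin at the Z disc of fast fibres, was at 0.8, 0.581 and 0.310 RPKM in Vismodegib against 0.0847, 1.05 and 0.0523 RPKM in DMSO. It was the highest of the genes too low to be tested, with a mean of 0.479 RPKM.

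Titin and the other giant proteins gave low values per length. Ttn was at 0.003 to 0.021 RPKM, on 12.8 to 94.7 reads per library for a transcript of 106824 bases, and Ryr1, the calcium release channel, was at 0.032 to 0.196 RPKM. Even so, DMSO replicate 3 was the lowest library for Ttn, Neb and Ryr1 alike. Xirp2, an actin-binding protein of muscle attachment sites, was at 0.0819, 0.127 and 0.0839 RPKM in Vismodegib against 0.0204, 0.0699 and 0 RPKM in DMSO, without overlap. Myot and Smpx, further genes of the Z disc and the force-bearing cytoskeleton, stayed below 0.5 RPKM in every library.

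The 6 calcium handling genes summed to 26.4, 10.9 and 8.80 RPKM in Vismodegib against 1.95, 19.0 and 0.168 RPKM in DMSO, the widest span of the 5 roles as a ratio. Pvalb, the parvalbumin that soaks up calcium in fast fibres, was at 18.3, 6.83 and 6.21 RPKM in Vismodegib against 1.36, 11.2 and 0 RPKM in DMSO, where 3 reads would have given 0.0758 RPKM in the library at 0. Atp2a1, the calcium pump of the fast sarcoplasmic reticulum, was at 5.01, 2.34 and 1.6 RPKM in Vismodegib against 0.0837, 5.72 and 0.0142 RPKM in DMSO. Casq1, which stores calcium inside the reticulum, was at 1.5, 0.636 and 0.468 RPKM in Vismodegib against 0.274, 1.5 and 0.038 RPKM in DMSO. Cacna1s, the voltage sensor of the T tubule, was at 0.166 to 0.266 RPKM in Vismodegib and 0.0326 to 0.342 RPKM in DMSO. Trdn, which encodes triadin, an anchor of the release channel, was the exception in DMSO replicate 2. Trdn was at 1.15, 0.723 and 0.177 RPKM in Vismodegib against 0.120, 0.0675 and 0.0053 RPKM in DMSO, without overlap.

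Of the metabolic genes, Ckm encodes muscle creatine kinase, which buffers ATP in working fibres (ENSMUSG00000030399.2, chromosome 7, 19404776 to 19422841, plus strand). Ckm was at 39.1, 17.9 and 14.9 RPKM in Vismodegib against 4.34, 26.1 and 0.255 RPKM in DMSO (log2 difference 2.28, SE 1.07, 95% interval -0.15 to 4.71, limma adjusted p = 1.0). The difference was 3.55 without DMSO replicate 2 and 0.98 without DMSO replicate 3. Pygm, the muscle glycogen phosphorylase, was at 1.38, 0.698 and 0.188 RPKM in Vismodegib against 0.0664, 1.52 and 0.0768 RPKM in DMSO. Mb, which encodes the oxygen store myoglobin, was at 2.18, 2.79 and 2.86 RPKM in Vismodegib against 1.21, 4.35 and 0.745 RPKM in DMSO. The gene Gm49540 overlaps Mb on the opposite strand and was at 3.11, 4.33 and 7.96 RPKM in Vismodegib and at 1.03, 2.82e-09 and 1.05 RPKM in DMSO. Its value in the library with the most Mb is in effect 0, and the split of reads between this pair is uncertain.

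Eno3, the beta enolase of muscle glycolysis, was the most abundant of the 40 genes per length and did not share the pattern. It was at 94.8, 80.1 and 32.8 RPKM in Vismodegib against 66.8, 63.4 and 42.8 RPKM in DMSO, with a log2 difference of 0.15 (95% interval -0.79 to 1.09). Vismodegib replicate 3 was its lowest library. Ampd1, the muscle AMP deaminase, stayed at no more than 0.112 RPKM.

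The tested genes kept unequal proportions to Acta1. Myh4 stood at 0.132, 0.0960 and 0.0719 times Acta1 in Vismodegib and at 0.148, 0.115 and 0.0182 times Acta1 in DMSO, on the RPKM scale. Tnni2 stood at 0.521, 0.920 and 0.703 times Acta1 in Vismodegib and at 2.07, 0.5 and 12.8 times in DMSO. Eno3 stood at 2.46, 2.89 and 1.55 times Acta1 in Vismodegib and at 24.2, 1.10 and 63.3 times in DMSO. Of the 21 tested genes, 2, 2 and 4 were above Acta1 in Vismodegib replicates 1, 2 and 3, and 8, 1 and 9 were above it in DMSO replicates 1, 2 and 3. The genes Tnni2, Tnnt3, Tpm2, Tnnc1 and Eno3 thus kept several RPKM or more in the controls in which Acta1 was lowest.

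Among the genes that belong to 1 fibre type, the 14 of fast fibres summed higher than the 7 of slow fibres in all 6 libraries. The 14 fast genes summed to 134, 107 and 65.6 RPKM in Vismodegib and to 21.4, 141 and 17.7 RPKM in DMSO. In DMSO replicates 1 and 3, most of the fast sum came from Tnni2, at 5.73 and 8.65 RPKM, and Tnnt3, at 8.30 and 6.96 RPKM. With Tnni2 and Tnnt3 left out and Tnnc1 kept, the fast sum fell below the slow sum in DMSO replicates 1 and 3. The 7 slow genes summed to 11.4, 6.34 and 6.80 RPKM in Vismodegib and to 10.1, 4.65 and 4.55 RPKM in DMSO. Without Tnnc1, which supplied most of it, the slow sum was 0.858 to 1.45 RPKM in Vismodegib and 0.177 to 1.48 RPKM in DMSO. The fast sum was highest in DMSO replicate 2, and its groups overlapped.

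Across the treatment comparison, all 21 tested muscle genes had log2 differences above 0, where 58.4% of all genes tested did. The differences ran from 0.15 in Eno3 to 2.28 in Ckm, with a median of 1.08 beside a median of 0.05 over all genes tested. They are differences of mean log2 values, on which the low values of DMSO replicates 1 and 3 weigh, and not ratios of mean RPKM. Acta1, at a log2 difference of 2.25, averaged 29.1 RPKM in Vismodegib and 20.4 RPKM in DMSO. The 95% interval included 0 in 18 of the 21 genes. Leaving out DMSO replicate 2 gave a median of 1.95, and leaving out DMSO replicate 3 gave 0.54. With DMSO replicate 3 left out 19 of 21 genes remained above 0. Library weights estimated by limma, which gave 7.28 to DMSO replicate 3 and 0.316 to DMSO replicate 2, gave 16 of the 21 genes at an adjusted p under 0.05, all higher in Vismodegib, where 2.59% of all genes were called in this direction. DMSO replicate 3 is the library with the least muscle RNA, and the iterations of the weight estimate stopped before they converged.

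**Figure D3:**
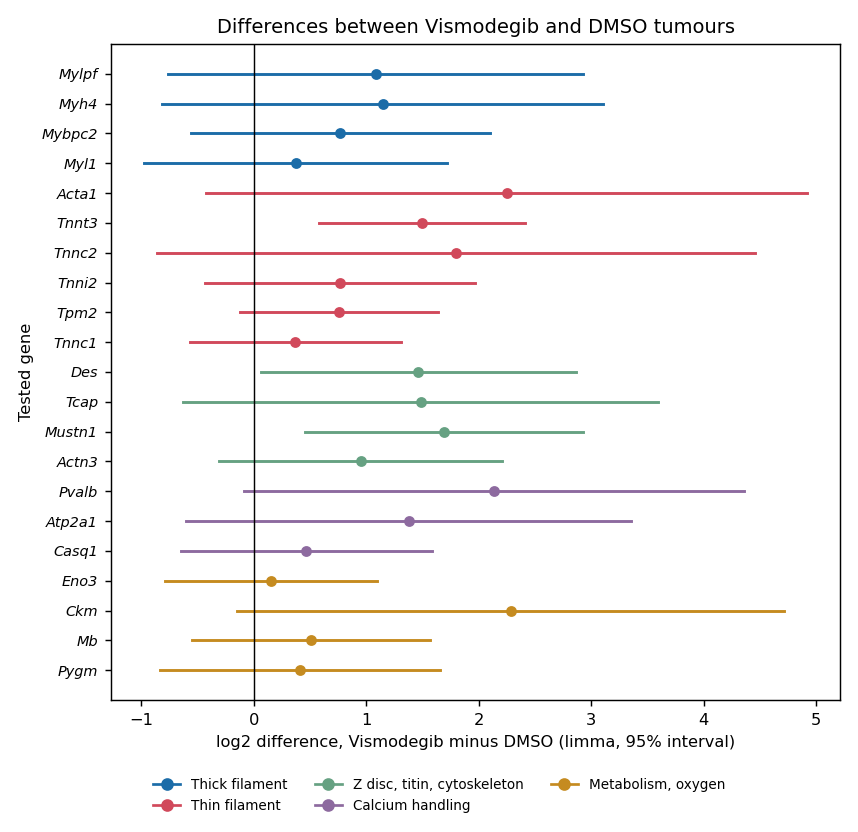
Log2 differences, Vismodegib minus DMSO, of the 21 tested muscle genes (points) with 95% intervals from limma (lines), coloured by role. All points lie above 0, and the intervals of Tnnt3, Des and Mustn1 are the 3 that exclude 0 before adjustment.

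The 19 genes too low for limma were compared by two-sided exact permutation tests of log2(RPKM + 0.5). With 3 against 3 libraries the smallest possible p is 0.1, and 2 of the 19 genes, Trdn and Xirp2, reached it (exact permutation, adjusted p = 0.95 over the 19). Both were higher in Vismodegib, and 2 of 19 is 10.5%. Of the 11563 genes too low to be tested but above 0 in at least 1 library, 3.49% had groups that did not overlap in this direction and 5.57% in either. The group mean, in RPKM and not on the tested log2 scale, was higher in Vismodegib for 16 of the 19 muscle genes. The share of all low genes with a higher mean in Vismodegib was not computed. In 9 of the 19 at least 1 library was listed at 0. Myh1, the second highest of these genes, was at 0.422, 0.448 and 0.340 RPKM in Vismodegib and at 0.0799, 1.06 and 0.323 RPKM in DMSO. Tnni1, the third highest, was at 0.460, 0.338 and 0.742 RPKM in Vismodegib and at 0.475, 0.430 and 0.11 RPKM in DMSO. For both, the treated values lay within the range of the controls or overlapped it.

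Other muscle genes were read from lists by role, and 15 of the 37 tested (40.5%) had DMSO replicates 1 and 3 below the other 4 libraries. Of 11 tested further sarcomere genes, 8 had differences above 0 and 3 below, with a median of 0.19 and none called. Their most abundant members were tropomyosin and chaperone genes that many cells use: Tpm3 was at 19.8 to 26.4 RPKM in Vismodegib and 10.8 to 35.5 RPKM in DMSO, Tpm1 was at 17.5 to 18.3 RPKM in Vismodegib and 11.6 to 20.7 RPKM in DMSO, and Cryab was at 8.06 to 15.7 RPKM in Vismodegib and 9.80 to 19.2 RPKM in DMSO. All 7 tested genes of excitation and calcium release had differences above 0, with a median of 0.23 and none called. In this list Chrnb1, an acetylcholine receptor subunit, was at 15.9 to 26.2 RPKM in Vismodegib and 15.6 to 27.1 RPKM in DMSO, whereas Cacng1, a subunit of the T tubule calcium channel, was at 2.94, 3.09 and 3.27 RPKM in Vismodegib against 0.962, 2.46 and 0.158 RPKM in DMSO. Jsrp1, a protein of the junction between T tubule and reticulum, was at 3.23, 2.02 and 2.95 RPKM in Vismodegib against 0.661, 2.67 and 0.148 RPKM in DMSO. Of 14 tested further metabolic genes, 9 had differences above 0 and 5 below, with a median of 0.41 and none called. The most abundant of these, Lgals1, Aldoa and Slc25a4, are used by many cell types and had overlapping groups. Lgals1 was at 2719 to 3114 RPKM in Vismodegib and 2004 to 4835 RPKM in DMSO, Aldoa was at 111 to 238 RPKM in Vismodegib and 95.8 to 436 RPKM in DMSO, and Slc25a4 was at 68.3 to 119 RPKM in Vismodegib and 60.6 to 175 RPKM in DMSO.

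Of 5 tested regulators of the muscle lineage, 4 had differences above 0 with a median of 0.37, none was called, and none had DMSO replicates 1 and 3 below the other 4 libraries. Myog, the transcription factor of muscle differentiation, was at 0.0643, 1.33 and 1.26 RPKM in Vismodegib and at 0.339, 1.06 and 0.149 RPKM in DMSO. Myf6, a myogenic factor of mature fibres that was too low to be tested, did have that order, at 0.456, 0.204 and 0.396 RPKM in Vismodegib and at 0.0211, 0.136 and 0 RPKM in DMSO, without overlap. Myod1, which commits cells to the lineage, was at no more than 0.154 RPKM. Mef2d and Ncam1, abundant members of this list, are expressed beyond muscle. Mef2d was at 8.62 to 11.3 RPKM in Vismodegib and 9.56 to 17.0 RPKM in DMSO. Ncam1 was at 2.82 to 3.42 RPKM in Vismodegib and at 4.63, 0.394 and 2.37 RPKM in DMSO, and was lowest in the control richest in contractile transcripts. Myf5, Pax7 and Pax3 were not analysed here.

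The 5 genes whose profile over the 6 libraries was most similar were all further muscle genes. Likeness was measured as the root mean square distance between standardised log2 profiles, from the mean profile of the 21 tested genes to each of 350 other genes that averaged 1 RPKM or more and had a log2 SD of 1 or more. The nearest was Pgam2, the muscle phosphoglycerate mutase, at a distance of 0.159, with 9.98, 4.43 and 4.23 RPKM in Vismodegib against 0.254, 8.92 and 0.0883 RPKM in DMSO. Cox8b and Cox6a2, the muscle forms of 2 subunits of cytochrome c oxidase, followed at 0.263 and 0.424, with Jsrp1 at 0.309 and Cacng1 at 0.429. The other 5 of the 10 nearest were Gm10925, the T cell receptor gene Trbc1, Gm17084, the secreted matrix protein gene Cthrc1 and Cbr2, at distances of 0.435 to 0.628. Among the muscle genes themselves, Actn3 and Acta1 lay closest to the mean profile, at 0.120 and 0.130, and Eno3 and Tnnc1 farthest, at 1.04 and 1.43.

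Some lists of other host cells shared the muscle order in part. Over the 10 tested adipocyte genes, the median deviation from the gene mean was 1.37, 1.48 and -0.81 in Vismodegib replicates 1, 2 and 3 and -0.80, -0.68 and -0.58 in DMSO replicates 1, 2 and 3, on the log2 scale. For the 21 muscle genes it was 0.91, 0.45 and 0.08 in Vismodegib and -1.08, 1.01 and -1.32 in DMSO. Fat and muscle genes were thus both high in Vismodegib replicates 1 and 2 and differed in Vismodegib replicate 3 and DMSO replicate 2. All 10 adipocyte genes had differences above 0, with a median of 1.27, beside 1.08 for the muscle genes. Of the 10, 5 were at an unadjusted p under 0.05 by limma, all higher in Vismodegib, and none was called. The list's summed level was 34.3 to 142 RPKM in Vismodegib and 31.6 to 42.8 RPKM in DMSO. The defining markers Adipoq and Plin1 were at no more than 2.82 and 0.292 RPKM. Of 6 tested smooth muscle genes, 5 had differences above 0, with summed levels of 172 to 379 RPKM in Vismodegib and 130 to 247 RPKM in DMSO, while the defining marker Myh11 stayed at 0.007 to 0.111 RPKM. The median deviation of these smooth muscle genes was -0.12, -0.05 and 0.84 in Vismodegib and -0.42, 0.33 and -0.65 in DMSO, so that DMSO replicates 1 and 3 were the lowest, as for the muscle genes. The fibroblast and pericyte genes had the same pair of libraries lowest, with median deviations of 0.54, -0.13 and 0.34 in Vismodegib and -0.40, -0.12 and -0.36 in DMSO. Of the 13 tested, 12 had differences above 0 with a median of 0.70, 4 were at an unadjusted p under 0.05 by limma, all higher in Vismodegib, and none was called. Their summed level was 124 to 240 RPKM in Vismodegib and 99.7 to 129 RPKM in DMSO. In this list Col3a1, a fibrillar collagen, was at 24.2, 11.9 and 23.8 RPKM in Vismodegib and at 5.34, 13.3 and 6.4 RPKM in DMSO. The genes of this list did not all share that order. Pdgfra was at 1.85, 0.964 and 1.59 RPKM in Vismodegib and at 2.16, 0.810 and 1.05 RPKM in DMSO. Dcn was lowest in DMSO replicate 2, at 1.24 RPKM, and Pi16 was highest in DMSO replicate 3, at 3.01 RPKM. All 9 tested endothelial genes had differences above 0, with summed levels of 102 to 224 RPKM in Vismodegib and 85.2 to 267 RPKM in DMSO. Of 5 tested Schwann cell and nerve genes, 1 had a difference above 0, with summed levels of 11.7 to 15.5 RPKM in Vismodegib and 8.97 to 21.1 RPKM in DMSO. The immune genes did not share the muscle order, and 4 of the 11 tested had differences above 0, with a median of -0.20. Their median deviation was 0.49, -0.29 and -0.48 in Vismodegib and 0.18, -0.06 and 0.10 in DMSO. Among 14 tested epithelial genes, 12 had differences above 0, with a median of 0.56. In that list 4 were at an unadjusted p under 0.05 by limma, all higher in Vismodegib, and none was called. The part of these cells in the muscle gene values was not tested.

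**Figure D4:**
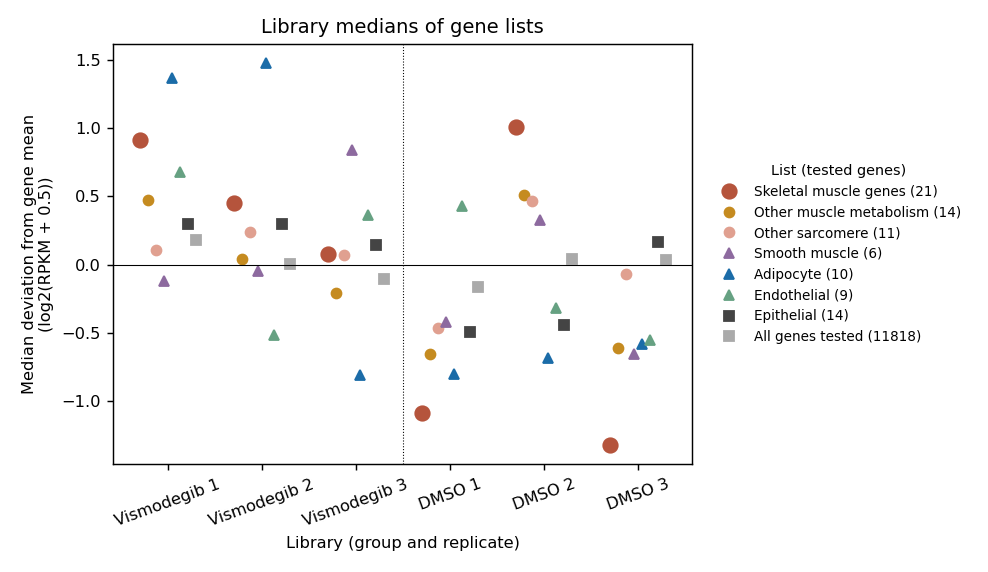
Median deviation from the gene mean, in log2(RPKM + 0.5), of the tested genes of 7 lists and of all genes tested (number of genes in the legend) in each library, Vismodegib left of DMSO. The skeletal muscle median is highest in DMSO replicate 2 (1.01) and Vismodegib replicate 1 (0.91) and lowest in DMSO replicate 3 (-1.32).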

How the data were processed

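The authors deposited RPKM values per gene symbol for 6 libraries, whose columns were matched to samples by title. The build was mm10 and the tools named were STAR, HISAT2, cutadapt, Partek, SAMtools and bcl2fastq 2.17, per the submitters' processing notes. Which tool made the values, and with which annotation, strand setting and filters, was not given in the sources used here. RPKM depends on what other genes contribute to a library. The division of reads among near-identical, overlapping and antisense genes is uncertain.

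Genes averaging 0.5 RPKM or more were tested with limma 3.58.1 (R 4.3.3) on log2(RPKM + 0.5) (eBayes with a trend, group as the only term, two-sided), with Benjamini-Hochberg adjustment over all 11818 genes. This scale understates the change of low genes. The muscle genes and all lists were chosen with earlier results of these data known, and a list is described by counts and medians, without a test. Genes too low for limma had exact permutation tests (scipy 1.17.1). Values per library are given for up to 4 most abundant tested genes per role, those at an unadjusted p under 0.05, and the 3 most abundant low genes; up to 3 most abundant tested genes of each other muscle list are named with ranges or values per library, except 1 not reported here. Tpm2, Tnnc1, Trdn, Xirp2, Myog, Myf6 and other genes beyond this rule were named after their values were seen.

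Library totals came from the steps of 6992 genes with 1 transcript in GENCODE M21 (mm10), read as single reads. Where several steps were common (0.5 times the count of the commonest or more), the one implying the highest total was taken. With these totals 80.3% to 84.9% of values up to 20 reads were whole within 0.02 reads; a total too high by a whole factor would not show. Reads and floors of 3 reads use the longest transcript and cover counting error only. None of 16 housekeeping genes was at 0 in any library. The limma step was tested on simulated data, with values drawn independently for each gene. Such data lack the shared library order of the muscle genes, so this test does not cover that case. Alternatives changed the pseudocount, filter, scaling, variance estimate, library weights, replicate block and libraries; rescaling to equal sums was added after the data were seen.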

Additional observations from a re-analysis of the deposited data

How the results depend on the processing

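Every alternative kept the median of the tested muscle genes above 0, from 0.38 with no filter (40 genes, of which 38 were above 0) to 1.95 with library weights. With 1 library left out, the median was 0.54 to 1.95, 19 to 21 genes were above 0, 0 of the muscle genes passed, and 0 to 19 genes of the whole table passed. The genes of the whole table that passed were 19 without DMSO replicate 1 and 0 in the other 5 cases. Signs turned only for Eno3 (-0.05 without DMSO replicate 3, -0.14 without Vismodegib replicate 1, -0.02 without Vismodegib replicate 2, range -0.14 to 0.62) and Myl1 (-0.0365 without DMSO replicate 3, range -0.0365 to 1.08). The cause was not tested. Library weights called 420 genes, 16 of them muscle genes. The replicate numbers showed no clear pairing of the libraries. Same-numbered deviations correlated at 0.00317, 0.0379 and -0.305, and those with different numbers at -0.231 to 0.303. With 3 libraries per group this check cannot exclude a small shared effect. With the number as a replicate block, 1 gene of the whole table and 0 muscle genes passed. The other scalings and variance estimates called 0 genes. The median was 1.54 with a pseudocount of 0.1 and 0.79 with 1. Values on few reads, such as Myh4 and Myh7 above, are limited by depth.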
